A study of Gossypium hirsutum with 6 samples.

Results

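Gh_A06G204600 is a gene of upland cotton (Gossypium hirsutum) whose Swiss-Prot match is polyphenol oxidase, chloroplastic, of apple. It was taken from the deposited gene table by its identifier, as 1 of 73622 genes. Another 10 genes of the table have polyphenol oxidase in their Swiss-Prot text and serve as context. RNA of whole fibers of strain 63 was sequenced at 15 days post-anthesis (15DPA) and at 5 days post-anthesis (5DPA), with 3 libraries per stage that the labels call biological replicates. No treatment or mutation is named, and the labels do not say how many plants or bolls went into a library. The gene was chosen by its high read count and FPKM at 5DPA and its low ones at 15DPA, so those values are given as a description and carry no test.

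Polyphenol oxidases are copper enzymes that use oxygen to turn phenols with neighbouring hydroxyl groups (o-diphenols) into quinones, which react further to brown pigments. In many plants the protein is carried into the plastid and on into the thylakoid lumen, while its phenolic substrates are kept in the vacuole. A cotton fiber is 1 cell of the outer seed coat layer that elongates for weeks and then thickens with cellulose, and neighbouring seed coat layers make phenolic pigments. The chloroplastic name comes from the apple protein, and neither the activity nor the location of the cotton protein was measured here.

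The gene lies on A06 from 121351185 to 121353035 on the plus strand, in the coordinates of the deposited table. Its model is 1851 bases long and spans the same number of bases of the genome, so the model has no intron. It is described in the table's NR column as a chloroplastic-like polyphenol oxidase of Gossypium hirsutum. The coding sequence and the protein were not used here.

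Gh_A06G204600 was among the most abundant genes of 5DPA fibers and of middling rank in 15DPA fibers. It had 101, 213 and 203 reads in the 15DPA libraries (replicates 1, 2 and 3), against 4557, 5375 and 6653 reads in the 5DPA libraries. In FPKM, which is reads per kilobase of gene model and per M counts of the library, the levels were 3.35, 6.79 and 7.02 at 15DPA, against 157.7, 174.7 and 218.0 at 5DPA. The stages did not overlap: the lowest 5DPA library stood 22.5-fold above the highest 15DPA library. Among 40054 genes with a mean of at least 1 FPKM over the 6 libraries, 37.3% likewise had all 15DPA values under all 5DPA values, and 50.2% had stages that did not overlap in either direction. The means were 5.72 ± 2.06 FPKM in 15DPA fibers against 183.5 ± 31.1 FPKM in 5DPA fibers (SD, 3 libraries each), a level 32.1-fold lower at 15DPA. On the log2 scale the ratio of means was −5.00, and over the 9 pairs of a 15DPA with a 5DPA library it ran from −6.02 to −4.49.

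By FPKM the gene ranked 25037, 18524 and 16328 in the 15DPA libraries, against 498, 446 and 341 in the 5DPA libraries, where rank 1 is the most abundant gene. The number of genes with any read was 50146 to 52303 per library. At 5DPA the gene thus stood in the top 0.952%, 0.858% and 0.665% of the genes with reads. At 15DPA it stood at 49.9%, 35.4% and 32.6% of the same ordering. The gene was therefore far lower at 15DPA but still had reads in each library of that stage. On this model 1 read is worth only 0.0319 to 0.0346 FPKM. Whether some of the 15DPA reads came from related gene copies was not tested.

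**Figure D1:**
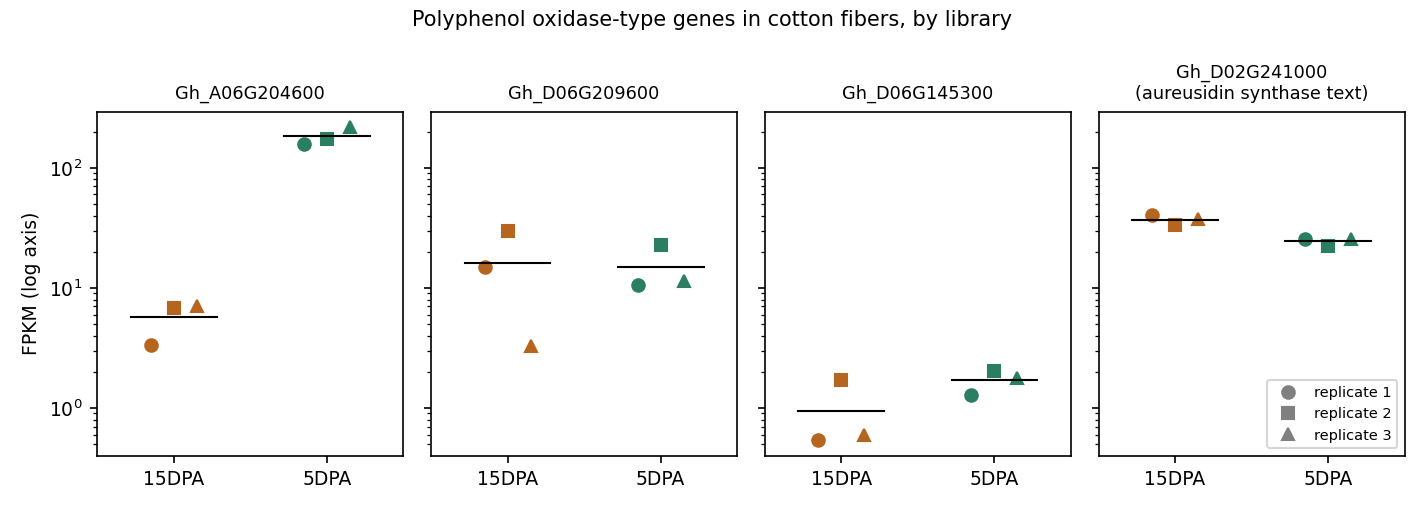
FPKM on a log axis for 4 polyphenol oxidase-type genes, with 15DPA libraries on the left and 5DPA libraries on the right of each panel; symbols are replicates and bars are means. Gh_A06G204600 lies at 3.35 to 7.02 FPKM in 15DPA fibers against 157.7 to 218.0 at 5DPA, whereas the stages overlap for Gh_D06G209600 and Gh_D06G145300, and Gh_D02G241000 is higher at 15DPA.

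The spread among replicates was small beside the distance between stages. The highest library exceeded the lowest 2.09-fold at 15DPA and 1.38-fold at 5DPA. The coefficient of variation was 35.9% at 15DPA, where 200 genes of neighbouring rank had a median of 20.7%, and 16.9% at 5DPA, where 200 such genes had a median of 11.4%. It was exceeded by 41 of those genes at 15DPA and by 51 at 5DPA, so replicates of this gene varied more than those of most genes at its level.

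The 6 libraries held 15.61 to 16.94 M counts. A principal component analysis put 60.9% of the variance on its first axis, where replicate 2 of 15DPA lay at 34.4 and the other 15DPA libraries at 104 and 130, against −78.1, −112 and −78.1 for 5DPA. The mean of Gh_A06G204600 was 26.6-fold lower at 15DPA without replicate 1 of 15DPA, 35.4-fold without replicate 2 and 36.2-fold without replicate 3. FPKM is scaled by library totals alone, and on that scale the median gene with a mean of at least 1 FPKM had a log2 ratio of −0.33. After scaling with TMM, which centres the bulk of genes, the level of Gh_A06G204600 was 26.3-fold lower at 15DPA. Fewer cells that express the gene and less of its RNA per cell cannot be told apart in RNA from whole fiber samples.

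Few abundant genes were lowered as far. The 200 genes within 100 ranks of Gh_A06G204600 by mean FPKM at 5DPA, from 159.2 to 220.9 FPKM, had a median log2 ratio of −0.17 and quartiles of −0.55 and 0.27. The lowest of them was at −3.47, above the −5.00 of the polyphenol oxidase gene. Of 1071 genes with a mean of at least 100 FPKM at 5DPA, 1 had a lower ratio. This was Gh_A10G221800, described as a 21 kDa seed protein, with a mean of 3.28 FPKM in 15DPA fibers against 224.2 FPKM at 5DPA. Of all 40054 genes with a mean of at least 1 FPKM, 26 had a lower ratio. These positions describe a gene chosen for this very difference and carry no test.

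**Figure D2:**
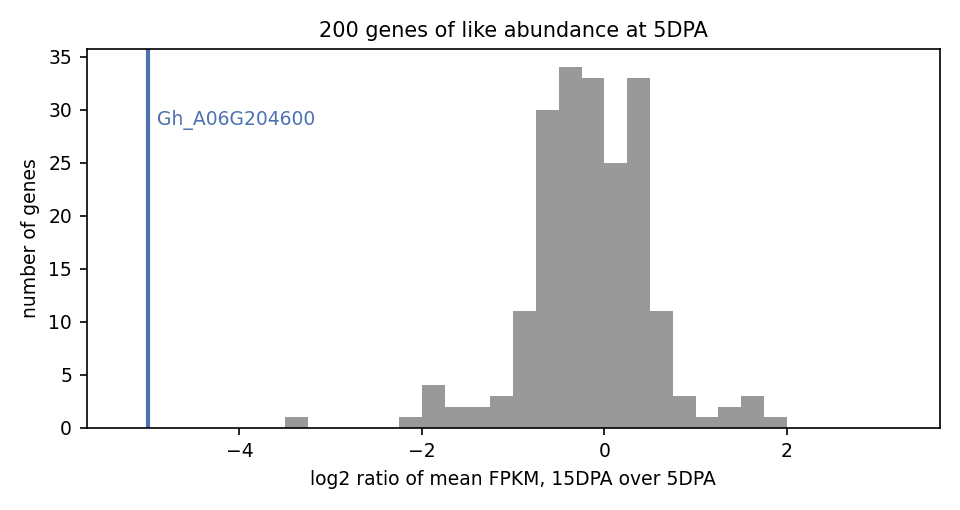
Number of genes by log2 ratio of mean FPKM, 15DPA over 5DPA, for the 200 genes nearest in rank to Gh_A06G204600 at 5DPA; the line marks Gh_A06G204600. The 200 genes centre on −0.17 and reach down to −3.47, and the polyphenol oxidase gene lies apart at −5.00.

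The 4 genes with a Swiss-Prot description that stood nearest in rank at 5DPA show how other genes of this abundance fared. Gh_A13G247900, described as a lipid transfer protein held at the cell surface, had 222.4 ± 33.7 FPKM in 15DPA fibers against 184.0 ± 29.7 FPKM in 5DPA fibers (SD, 3 libraries each). Gh_A10G062800, described as phospholipase D alpha 1, which cleaves membrane phospholipids, had 201.9 ± 20.7 FPKM in 15DPA fibers against 183.5 ± 19.5 FPKM at 5DPA. Gh_D09G064800, described as stem-specific protein TSJT1, had 66.4, 146.4 and 87.1 FPKM in the 15DPA libraries, against 183.4 ± 6.45 FPKM in 5DPA fibers. Gh_A11G306900, described as calreticulin, a calcium-binding chaperone of the endoplasmic reticulum, had 114.6 ± 8.98 FPKM in 15DPA fibers against 183.1 ± 12.6 FPKM at 5DPA. In single 15DPA libraries these 4 genes had between 66.4 and 261.3 FPKM, whereas Gh_A06G204600 had at most 7.02 FPKM.

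The polyphenol oxidase family of the table has 11 genes, with 4 on A06, 5 on D06 and 1 each on A09 and D09. Of the 10 genes other than Gh_A06G204600, 4 had no read in any library: Gh_A06G234200, Gh_D06G145500, Gh_D06G209900 and Gh_D06G241600. A count of 0 allows up to 3 reads per library, which for these models comes to about 0.1 FPKM. A further 4 had between 2 and 26 reads over all libraries and stayed at a mean of 0.149 FPKM or less. The last 2, Gh_D06G209600 and Gh_D06G145300, were the only others with a mean of at least 1 FPKM and could be tested.

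The D06 gene at the matching position, Gh_D06G209600, had about the same mean level at both stages. It lies on D06 from 61552089 to 61553972 on the plus strand and carries the NR name polyphenol oxidase-3. It had 14.9, 29.7 and 3.3 FPKM at 15DPA, against 10.6, 22.6 and 11.4 FPKM at 5DPA. The stages overlapped fully, and replicate 3 of 15DPA was the lowest and replicate 2 of 15DPA the highest of the 6 libraries. The mean was 16 ± 13.2 FPKM in 15DPA fibers against 14.9 ± 6.74 FPKM in 5DPA fibers (SD, 3 libraries each). The log2 change, 15DPA over 5DPA, was 0.36 ± 0.63 (SE) and did not pass (edgeR quasi-likelihood test, two-sided, Benjamini-Hochberg adjusted p = 0.697 over 40054 genes). The width of that error leaves changes in either direction possible, and the sign turned to −0.32 without replicate 2 of 15DPA.

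The third gene with a measurable level, Gh_D06G145300, lies on D06 from 43822700 to 43824857 on the minus strand. It had 0.541, 1.70 and 0.593 FPKM at 15DPA, against 1.28, 2.04 and 1.77 FPKM at 5DPA. Replicate 2 of 15DPA lay among the 5DPA values and the other 15DPA libraries lay under them. The log2 change was −0.58 ± 0.44 (SE, edgeR adjusted p = 0.355), and it passed only without replicate 2 of 15DPA, at −1.21 (edgeR adjusted p = 0.0411). Of the other genes tested, 0 of 2 were called by edgeR, and 0 also had an unadjusted p under 0.05 or were called by DESeq2. Among all genes tested, 23.4% were called in either direction, 13.0% higher and 10.4% lower at 15DPA. With library totals in place of TMM, 2879 of all genes were higher and 7730 lower, against 5206 higher and 4151 lower with TMM.

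Some of the scarcest family members had reads at 1 stage more than the other. Gh_D09G083200 had 12, 14 and 0 reads at 15DPA, against no read in the 3 libraries of 5DPA. Gh_A09G088100 had 11, 6 and 0 reads at 15DPA, against 0, 4 and 0 reads at 5DPA. Both pairs of stages overlapped at 0, because replicate 3 of 15DPA had no read of either gene. Gh_A06G149900 had 2 reads in all, both at 5DPA, and Gh_A06G150100 had 3 reads, 1 at 15DPA and 2 at 5DPA.

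Gh_A06G204600 supplied most of the family reads in all 5DPA libraries and in 1 of the 15DPA libraries. It held 16.8%, 17.1% and 63.4% of the reads of the 11 genes in the 15DPA libraries, against 92.8%, 87.2% and 94.1% in the 5DPA libraries. The high share in replicate 3 of 15DPA stands beside the low level of Gh_D06G209600 in that library, and without it the mean share at 15DPA was 17.0% in place of 32.5%. The family summed to 23.1 ± 14.3 FPKM in 15DPA fibers against 200.1 ± 30.8 FPKM in 5DPA fibers (SD, 3 libraries each). Without Gh_A06G204600 the sum was 17.4 ± 14.1 FPKM in 15DPA fibers against 16.7 ± 7.15 FPKM at 5DPA.

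**Figure D3:**
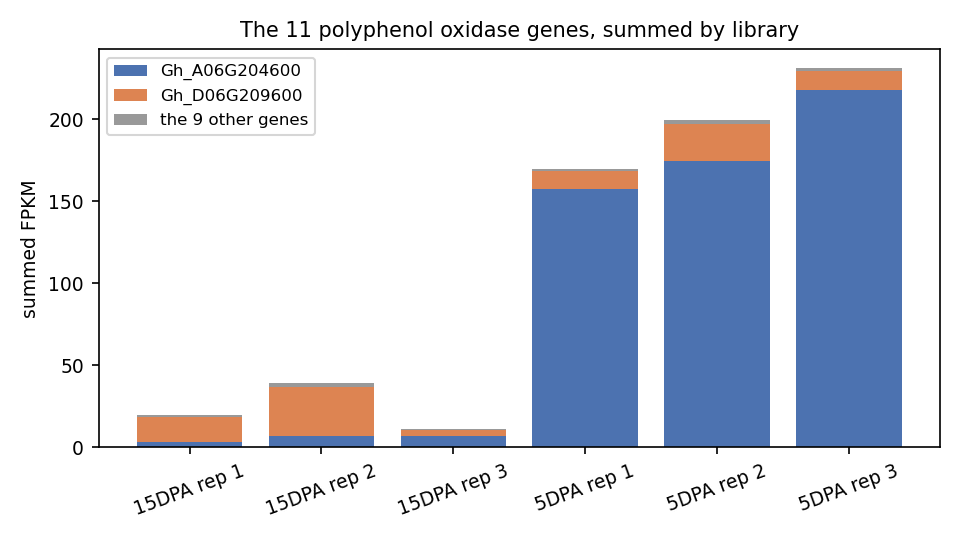
Summed FPKM of the 11 polyphenol oxidase genes in each library, stacked by gene, with the 3 libraries of 15DPA on the left. Gh_A06G204600 fills most of each 5DPA bar, and Gh_D06G209600 fills most of the bars of replicates 1 and 2 of 15DPA.

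The balance between the A06 and the D06 gene differed between the stages. In FPKM the ratio of Gh_A06G204600 to Gh_D06G209600 was 0.225, 0.229 and 2.13 at 15DPA, against 14.9, 7.72 and 19.2 at 5DPA. Cotton carries closely related A and D gene copies, and how the authors counted reads that match both is not given in the sources used here, so the exact split between copies is uncertain. The A06 gene was the higher one in all 5DPA libraries and in replicate 3 of 15DPA, and the lower one in the other 15DPA libraries.

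The surroundings of the A06 and D06 genes match in part. On both chromosomes a gene described as the transcription elongation factor SPT6 and one described as metacaspase-9, a cell death-associated protease of Arabidopsis, lie within 3 genes upstream. Downstream the next genes differ, with Gh_A06G204700 described as metacaspase-9 and Gh_D06G209700 as pescadillo homolog. A second polyphenol oxidase gene of D06, Gh_D06G209900, lies 42077 bases downstream of Gh_D06G209600 and had no read in any library. The SPT6 genes had 6.84 ± 1.86 FPKM in 15DPA fibers against 9.95 ± 2.62 FPKM at 5DPA on A06 (Gh_A06G204300). On D06 (Gh_D06G209400) they had 7.03 FPKM in 15DPA fibers against 10.8 FPKM at 5DPA. Neither passed the test, with edgeR adjusted p = 0.423 for the A06 gene and 0.248 for the D06 gene.

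The nearest neighbours of Gh_A06G204600 did not share its level. Gh_A06G204700, described as metacaspase-9 and 2734 bases downstream, had 0, 3 and 2 reads at 15DPA and 4, 7 and 5 reads at 5DPA. The metacaspase-9 gene on the other side, Gh_A06G204400, and the next downstream genes, Gh_A06G204800 and Gh_A06G204900, had no read in any library. Gh_A06G204500, which has no Swiss-Prot description, is named putative L-threonine 3-dehydrogenase in the NR column and lies 24754 bases upstream, had 15.7, 16.5 and 16.1 FPKM at 15DPA, against 44.6, 56.0 and 43.8 FPKM at 5DPA. It fell by 1.28 ± 0.15 on the log2 scale (SE, edgeR adjusted p = 0.00394). Its change was thus in the same direction as that of Gh_A06G204600, with the ranges of the stages apart.

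The table also places 4 genes under the KEGG entry for polyphenol oxidase whose Swiss-Prot text is aureusidin synthase, a related copper enzyme that makes yellow flower pigments in snapdragon. They lie outside the family as defined above and were added after their values were seen. Gh_D02G241000, on D02 from 69403864 to 69405884, had 40.4, 33.1 and 37.7 FPKM at 15DPA, against 25.5, 22.4 and 25.5 FPKM at 5DPA. All 15DPA libraries were above all 5DPA libraries, and the log2 change of 0.90 ± 0.17 (SE) passed the test (edgeR adjusted p = 0.0129). The call was lost without replicate 1 of 15DPA and also without replicate 2 of 5DPA (edgeR adjusted p = 0.0585 in both cases).

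The other aureusidin synthase-type genes were low. Gh_D12G028300 had 4.91, 6.12 and 3.49 FPKM at 15DPA, against 6.14, 4.77 and 5.24 FPKM at 5DPA, with overlapping stages and edgeR adjusted p = 0.705. Gh_A03G224400 had 11 reads at 15DPA and 5 reads at 5DPA in all, and Gh_A12G029900 had none. At 15DPA Gh_D02G241000 was thus the most abundant gene of this enzyme class in each library, and at 5DPA Gh_A06G204600 was.

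Among 32571 other genes with a Swiss-Prot description and a mean of at least 1 FPKM, the 5 whose profiles over the 6 libraries were most like that of Gh_A06G204600 came from different families. Likeness was the root mean square difference between log2(FPKM + 1) values, each gene centred on its own mean. It was 0.52 for the closest gene and 0.71 for the last of the 5, against a median of 2.30 over all of them and 2.51 for Gh_D06G209600. Because the profiles are dominated by the step between the stages, the measure mainly finds genes with a step of the same size.

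The closest was Gh_D01G024300, named after a bacterial fatty acid methyltransferase (UfaA1), with 0.246, 0.766 and 0.469 FPKM in 15DPA fibers against 14.2, 34.8 and 28.3 FPKM at 5DPA. Next came Gh_A13G033200, described as RADIALIS-like 1, a small MYB-related protein, with 0, 1 and 1 reads at 15DPA and 34, 87 and 131 reads at 5DPA. Both were much scarcer than Gh_A06G204600 at 5DPA. Gh_D03G188900, described as sieve element occlusion B, a filament protein of phloem in other plants, had 6.54, 11 and 10.9 FPKM in 15DPA fibers against 82.8, 123.4 and 159.7 FPKM at 5DPA. It came nearest to Gh_A06G204600 in abundance. Replicates 1, 2 and 3 of 5DPA stood in the same order in both genes, as they did in Gh_A13G033200.

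The remaining genes of the 5 had the highest 15DPA level in replicate 2, as did Gh_D01G024300 and, by a small margin, Gh_D03G188900. Gh_D13G245200, a histone H3.2 gene of the class used in DNA replication, had 3.13, 8.66 and 3.36 FPKM in 15DPA fibers against 61.2, 87.2 and 64.7 FPKM at 5DPA. Gh_A05G083700, described as an osmotin-like protein of a pathogen-response family, had 1.44, 7.87 and 1.79 FPKM in 15DPA fibers against 52.7, 77.1 and 52.1 FPKM at 5DPA. In Gh_A06G204600 replicate 1 was the lowest 15DPA library, as in all 5 of the like genes, while replicates 2 and 3 had 6.79 and 7.02 FPKM.

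**Figure D4:**
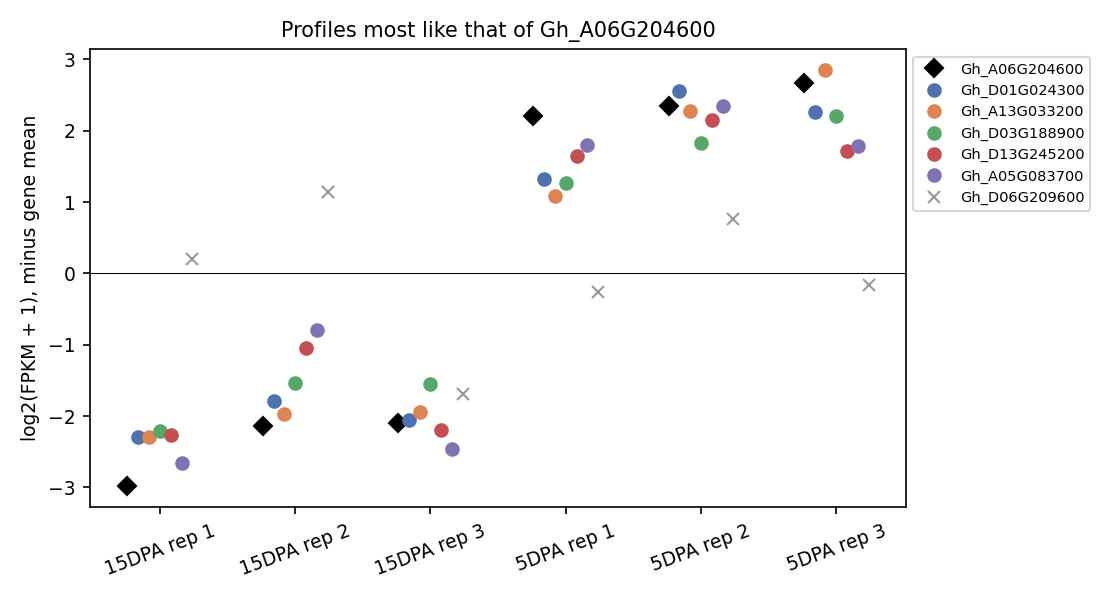
log2(FPKM + 1) minus each gene's mean over the 6 libraries, for Gh_A06G204600 (diamonds), the 5 genes most like it (circles) and Gh_D06G209600 (crosses). Gh_A06G204600 and these 5 genes are low in all 15DPA libraries and high in all 5DPA libraries, while Gh_D06G209600 is lowest in replicate 3 of 15DPA and has no such step.

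Genes of copper supply, which a copper enzyme needs, changed in both directions. Of 46 genes in this list 33 were tested, and 7 rose and 5 fell (36.4%, against 23.4% of all genes tested; edgeR adjusted p under 0.05). The list's median log2 change was 0.02, against −0.04 for all genes tested. The 4 most abundant members all rose. They were 2 genes for copper transporter 1, an uptake protein of the cell membrane, and 2 for ATX1, a chaperone that carries copper through the cytosol.

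The ATX1 gene Gh_D04G017900 had 117.1 ± 27.2 FPKM in 15DPA fibers against 59.2 ± 8.0 FPKM in 5DPA fibers (SD, 3 libraries each; log2 change 1.29 ± 0.24 SE, edgeR adjusted p = 0.0122). The transporter genes Gh_D03G135300 and Gh_A03G061500 had log2 changes of 0.98 ± 0.18 and 1.14 ± 0.15, in that order (SE, edgeR adjusted p = 0.012 and 0.00552). The second ATX1 gene, Gh_A05G405000, rose by 0.66 ± 0.18 (SE, edgeR adjusted p = 0.0399), a call lost in 8 of 14 alternative settings. The call of Gh_D03G135300 was lost without replicate 1 of 15DPA (edgeR adjusted p = 0.0528) and without replicate 2 of 5DPA (edgeR adjusted p = 0.0502), and that of Gh_D04G017900 without replicate 2 of 5DPA (edgeR adjusted p = 0.0534). The call of Gh_A03G061500 held in all 14 settings.

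The 3 other genes of the list that rose are described as copper transporter 5.1, HMA4 and RAN1, and 1 of the 5 that fell as HMA5, all of them copper transporters. The rest of those that fell belong to copper import into the plastid. Of the 6 genes described as PAA1 or PAA2, ATPases that in Arabidopsis move copper across the plastid envelope and the thylakoid membrane, 4 fell and 0 rose, where 10.4% of all genes tested fell and 13.0% rose. This subgroup of the list was picked out after its values were seen. Its summed level was 21.2 ± 1.47 FPKM in 15DPA fibers against 40.5 ± 5.94 FPKM in 5DPA fibers (SD, 3 libraries each). The PAA1 genes Gh_A03G201200 and Gh_D02G218100 fell by 0.83 ± 0.15 and 1.03 ± 0.18 (SE, edgeR adjusted p = 0.0125 and 0.0111). The PAA2 genes Gh_D06G093300 and Gh_A06G093400 fell by 0.86 ± 0.18 and 1.21 ± 0.27 (SE, edgeR adjusted p = 0.0164 and 0.0212).

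These counts depended on single libraries. The copper list had 4 calls without replicate 1 of 15DPA, 2 without replicate 2 of 5DPA and 6 without replicate 3 of 5DPA, and the PAA genes had 0, 1 and 2 calls in those cases. With library totals in place of TMM, 4 copper genes were higher and 5 lower.

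Thylakoids are the usual destination of plant polyphenol oxidases. Genes listed for protein import into the thylakoid lumen summed to 55.6 ± 9.22 FPKM in 15DPA fibers against 78.9 ± 7.06 FPKM in 5DPA fibers (SD, 3 libraries each). With thylakoidal processing peptidases added, the sum was 101.8 ± 14.5 FPKM at 15DPA against 130.2 ± 6.75 FPKM at 5DPA. On the same FPKM scale, the median gene with a mean of at least 1 FPKM had a log2 ratio of −0.33. The list itself held twin-arginine translocase subunits, stromal processing peptidases and ALBINO3-like proteins, 2 of the latter mitochondrial by name. Genes for crossing the plastid envelope were not part of it. Of 12 genes in this list, all tested, 1 fell and 0 rose (8.33%, against 23.4% of all genes tested), with a median of −0.22. The gene called was Gh_D13G196200, described as TATA, a subunit of the twin-arginine translocase, with 3.24 ± 0.903 FPKM in 15DPA fibers against 9.21 ± 2.82 FPKM in 5DPA fibers (SD, 3 libraries each). It fell by 1.22 ± 0.28 on the log2 scale (SE, edgeR adjusted p = 0.0234). Gh_D12G165100 and Gh_A12G167200, described as ALBINO3-like 1, had log2 changes of −0.11 and −0.30 and did not pass (edgeR adjusted p = 0.613 and 0.222). Gh_A09G069200, described as ALBINO3-like 3 and mitochondrial by its name, did not pass either (edgeR adjusted p = 0.135). The call of Gh_D13G196200 was lost without replicate 1 of 15DPA or replicates 2 or 3 of 5DPA (edgeR adjusted p up to 0.0955), and without replicate 2 of 15DPA the list had 3 calls.

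Genes on the routes to o-diphenols differed widely in level, and the sum over the list was 1818.5 ± 320.6 FPKM in 15DPA fibers against 1762.1 ± 94.6 FPKM in 5DPA fibers (SD, 3 libraries each). Of 80 genes in this list 41 had a mean of at least 1 FPKM and were tested, and 14 rose and 1 fell (36.6%, against 23.4% of all genes tested), with a median of 0.36. Of the 14 that rose, 11 carry the description caffeoylshikimate esterase, a name that best-match annotation also gives to related lipases. The other 3 are described as shikimate O-hydroxycinnamoyltransferase, as is the gene that fell, Gh_A10G147200. For Gh_A10G147200 edgeR gave a log2 change of −1.29 with an adjusted p of 0.0278. The most abundant tested gene of that description, Gh_D10G125900, was also lower at 15DPA but was not called. The 15DPA libraries held 14.4, 17.7 and 64.4 FPKM of it, and the 5DPA libraries 104.7, 135.3 and 143.7 FPKM. By edgeR its log2 change of −1.67 had an adjusted p of 0.0701. With library totals in place of TMM, 10 genes of the list were higher and 3 lower. The list had 7 calls without replicate 1 of 15DPA, 6 without replicate 2 of 5DPA and 7 without replicate 3 of 5DPA.

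None of the 4 most abundant members passed. The anthocyanidin reductase gene Gh_A05G152700, whose enzyme makes epicatechin, had 486.5 ± 123.2 FPKM in 15DPA fibers against 461.4 ± 54.6 FPKM in 5DPA fibers (SD, 3 libraries each; edgeR adjusted p = 0.22). A second one, Gh_D05G168500, had 203.5 ± 102.4 FPKM in 15DPA fibers against 195.8 ± 35.8 FPKM at 5DPA (edgeR adjusted p = 0.505). The leucoanthocyanidin reductase gene Gh_D12G188200, whose enzyme makes catechin, had 121.9 ± 93.7 FPKM in 15DPA fibers against 169.6 ± 61.1 FPKM at 5DPA (edgeR adjusted p = 0.815). Gh_A05G418800, described as caffeoylshikimate esterase, had 166.6 ± 21.0 FPKM in 15DPA fibers against 145.7 ± 19.0 FPKM at 5DPA (edgeR adjusted p = 0.115). Its log2 change of 0.49 passed with the replicate block (edgeR adjusted p = 0.0454), and one of 0.65 passed without replicate 2 of 15DPA (edgeR adjusted p = 0.0425).

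Fiber markers were abundant in every library. The 265 genes of the fiber list, of which 225 had reads, summed to 35422 to 49596 FPKM in 15DPA fibers against 22199 to 29066 FPKM at 5DPA. The list includes general cytoskeleton genes (actin and alpha tubulin) and fasciclin-like arabinogalactan proteins, so its sum is not of fiber-specific genes alone. The 10 genes for protein E6, an abundant cotton fiber protein, summed to 12856 to 19617 FPKM in 15DPA fibers against 8271 to 11752 FPKM at 5DPA. Other members of the list stood lower at 15DPA: the 10 genes described as MYB106 summed to 1.40 to 2.23 FPKM in 15DPA fibers against 14.1 to 17.4 FPKM at 5DPA, and the 11 described as MYB16 to 22.3 to 26.3 FPKM in 15DPA fibers against 57.8 to 61.3 FPKM at 5DPA. Legumin and 2S albumin genes, which mark the storing embryo, had no read in any library. The 8 genes of the storage protein vicilin summed to 7.87 to 11 FPKM in 15DPA fibers against 2.95 to 3.79 FPKM at 5DPA, and 21 oleosin genes summed to 4.57 to 7.58 FPKM in 15DPA fibers against 2.66 to 4.32 FPKM at 5DPA. All 82 genes of the embryo and endosperm list, of which 41 had reads, summed to 608.9 to 913.5 FPKM in 15DPA fibers against 506.9 to 733.5 FPKM at 5DPA, most of it from late embryogenesis abundant proteins. The 57 green tissue genes, of which 49 had reads, summed to 25.6 to 46.8 FPKM in 15DPA fibers against 74.0 to 79.8 FPKM at 5DPA.

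Of the markers of other cell types, the green tissue list was lower as a sum in all 15DPA libraries, by far less than Gh_A06G204600. Its 49 chlorophyll a-b binding genes summed to 20.1 to 32.3 FPKM at 15DPA against 65.5 to 66.4 FPKM at 5DPA. Its 8 ribulose bisphosphate carboxylase small subunit genes overlapped between stages, with 5.49 to 14.5 FPKM at 15DPA against 8.53 to 13.8 FPKM at 5DPA. The vascular list was lower only with 1 gene, Gh_D03G188900, included. The 43 vascular genes, of which 35 had reads, summed to 38.5 to 69.1 FPKM in 15DPA fibers against 112.5 to 191.3 FPKM at 5DPA. Most of the 5DPA sum came from Gh_D03G188900, named above for its likeness to Gh_A06G204600. The other 42 vascular genes summed to 31.9, 58.1 and 29.5 FPKM in the 15DPA libraries, against 29.7, 27.7 and 31.6 FPKM in the 5DPA libraries, so they were not lower at 15DPA as a sum. Among them 12 phloem protein 2 genes summed to 20.1 to 30.5 FPKM in 15DPA fibers against 14.3 to 17.5 FPKM at 5DPA. The xylem cysteine proteinases of that list matched no gene description. The part of these cells in the level of Gh_A06G204600 was not tested.

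The 23 markers of pigmented seed coat layers, which include the anthocyanidin and leucoanthocyanidin reductases and of which 22 had reads, did not follow the stages. They summed to 1034.6, 1473.2 and 603.9 FPKM at 15DPA, against 1140.7, 1385.4 and 1012.8 FPKM at 5DPA. The reductases are also members of the o-diphenol list, and whether their RNA came from fiber or seed coat cells was not tested. Gh_A06G204600 did not follow the summed markers: replicate 2 of 15DPA had the highest sum of all and 6.79 FPKM of the gene. Gh_D06G209600 shared their extremes but not their whole order. It was highest in replicate 2 of 15DPA, second in replicate 2 of 5DPA and lowest in replicate 3 of 15DPA, as were the summed markers. Of the other 3 libraries, replicate 1 of 5DPA had the highest marker sum and the lowest level of Gh_D06G209600 among the 3. This partial likeness over 6 libraries was noticed after the values were seen and is a description, and the part of seed coat cells in the level of Gh_D06G209600 was not tested.

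**Figure D5:**
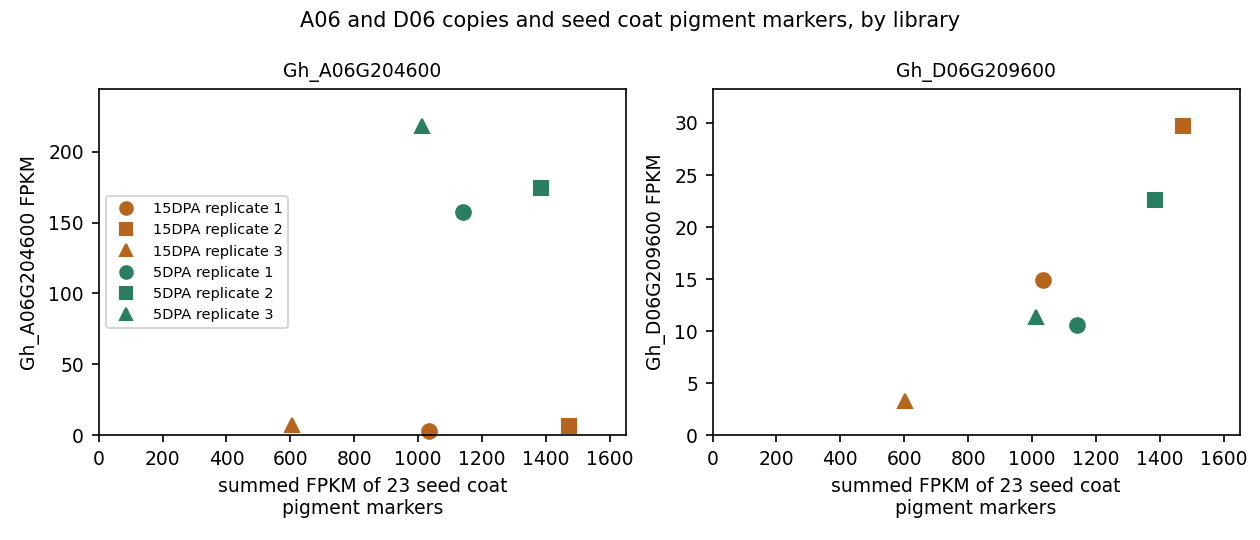
FPKM of Gh_A06G204600 (left) and Gh_D06G209600 (right) against the summed FPKM of 23 seed coat pigment markers, 1 point per library. The 15DPA points of Gh_A06G204600 lie near the bottom at any marker sum, while Gh_D06G209600 runs from 3.3 FPKM at a sum of 603.9 to 29.7 FPKM at a sum of 1473.2.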

How the data were processed

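Poly(A) RNA was sequenced on an Illumina platform, per the labels' protocols. HISAT and StringTie are the tools named in the submitters' processing notes, with no version. The authors' deposited table gives, per the file headers, a raw read count and an FPKM value per gene and library. The deposited FPKM equalled count / length / library total within 6.92 ppm after the usual scaling per kilobase and per M counts. For genome build, annotation, counting settings and strand, the sources used here give nothing, and 2 lines of the table were empty.

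Genes whose FPKM averaged at least 1 over the 6 libraries (40054 genes, 99.34% of counts) were tested with edgeR 4.0.16 in R 4.3.3 (quasi-likelihood, TMM, two-sided, Benjamini-Hochberg over all genes tested, threshold 0.05). Changes are 15DPA over 5DPA. The script was tested on simulated counts. Alternatives used limma 3.58.1, DESeq2 1.42.0, other scalings, filters and pseudocounts, a replicate block and each library left out. Counting intervals were not needed beside replicates, and limits for counts of 0 cover counting error only.

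The gene, the lists and the tests were chosen with earlier results of these data known. Lists were matched on Swiss-Prot text. Genes named are the polyphenol oxidase genes, the 5 most similar profiles and 3 flanking genes on each side. They also include 2 rank neighbours on each side at 5DPA and the 4 most abundant members of each list. The D06 flanking genes, the PAA genes and the aureusidin synthase-type genes were added after their values were seen. So were Gh_A10G221800, Gh_A10G147200 and Gh_D10G125900. Whether libraries came from separate plants is not stated beyond the word biological. The p-values thus rest on the variation between these libraries, with edgeR sharing information across genes, and may not extend to other plants. The SE of a log2 change is its absolute value divided by the square root of the test's F statistic.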

Additional observations from a re-analysis of the deposited data

How the results depend on the processing

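Gh_A06G204600 kept its direction in every setting run. Its log2 ratio was −4.72 with TMM factors, −4.70 with DESeq2 size factors, −4.82 and −5.04 with pseudocounts of 1 and 0.1, and ran from −5.18 to −4.73 with a library left out. Its share of family reads ran from 17.0% to 40.3% at 15DPA and from 90.0% to 93.4% at 5DPA when single libraries were dropped. Its median rank at 5DPA was 237 by read count and 446 by FPKM, and at 15DPA it was 15943 by read count and 18524 by FPKM.

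When 1 library was omitted, the calls over all genes ran from 2319 to 11434, against 9357 with all libraries, and the lowest counts came without replicate 1 of 15DPA (2319) and without replicate 2 of 5DPA (2338); those of the other polyphenol oxidase genes from 0 to 1, of copper supply from 2 to 13, of lumen import from 0 to 3, of o-diphenol synthesis from 6 to 17 and of the PAA genes from 0 to 4. A mean FPKM of at least 5 left 20 copper genes, with 5 calls. Lumen import had 2 calls by limma on log2(FPKM + 1); adding members spelled thylakoidal processing peptidase left it at 1 of 16. The causes of these differences in call counts were not tested.

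Deviations from the stage means correlated at −0.262, 0.29 and 0.0587 between libraries numbered 1, 2 and 3 at both stages, and libraries 1 and 3 correlated better with another number, so the numbers were not taken to pair the libraries. With the replicate block, calls numbered 8971 over all genes, 0 for the other polyphenol oxidase genes, 11 for copper supply, 2 for lumen import and 16 for o-diphenol synthesis.

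Changes of sign concerned genes that did not pass. By limma with pseudocounts of 1 and 0.1 the log2 change was −0.23 and −0.29 for Gh_D06G209600, −0.07 and −0.08 for Gh_D05G168500, and −0.15 and −0.18 for Gh_D12G028300, which was −0.16 with library totals alone. With a library left out Gh_D06G209600 ran from −0.32 to 0.83 and Gh_D12G188200 from −0.78 to 0.25. The 8 family members under 1 FPKM were left out of the main test. With no filter on low values, the 6 other polyphenol oxidase genes with any read were tested and 0 were called. With so few or no reads, a difference between stages in the scarcest members stays possible.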
